A study of Homo sapiens with 4 samples.

Results

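RNA bound by PABPC4 was mapped in MDA-MB-231, an established human breast cancer line of triple-negative, mesenchymal-like type, and its peaks are described here gene by gene. Every entry of the PABPC4 list was taken, 69778 in all, which came to 63507 distinct positions (chromosome, start, end and strand) of the 72614 in the lists of both proteins of the series. Each position was counted once, under the NCBI gene ID listed for it, and 12947 gene IDs then held at least 1 peak. For each of them the tallest peak, the number of peaks and the share of the summed height in the last 3′ untranslated region (UTR) segment were taken. The height of a peak is the number of unique tags (sequenced RNA fragments) at its summit. It was not scaled to sequencing depth or to how much RNA a gene makes, so an abundant mRNA and a densely bound mRNA cannot be told apart.

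The 2 samples were MDA-MB-231 cells with no gene or drug treatment named in their labels, cross-linked with 400 mJ per square centimetre of ultraviolet light at 254 nm and precipitated with an antibody to PABPC4. By the study's methods they were biological duplicates, lysates digested with RNase at a medium and a low dilution were combined before the precipitation, and the poly(A) tailing step of the library kit was left out. The authors merged the 2 samples into 1 list, so replicate spread could not be computed and no test was made. The 95% intervals rest on the number of genes counted in this list. They do not cover variation between samples, since genes are not replicates. The depth of each library was not analysed here.

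PABPC4 belongs to the cytoplasmic poly(A)-binding proteins, which coat the poly(A) tail of mRNAs, join it to the translation machinery and govern how fast the tail is removed. PAPERCLIP is a form of cross-linking and immunoprecipitation in which reverse transcription starts on poly(A), so that tags from a tailed mRNA end where its 3′ end meets the tail. Such an end is usually cut shortly after a poly(A) signal, AAUAAA or the weaker AUUAAA, and a run of A inside a transcript can also take the primer.

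The last bases are shown for the 10 tallest peaks in nuclear genes, because these peaks head the ranking that follows. Among them, the S100A6 and HSP90AA1 peaks had their centres in coding sequence. The HSP90AA1 peak is not shown to be a 3′ end, and neither is that of MALAT1, which had further peaks downstream. Each sequence is the last 30 bases of the peak on its own strand, 5′ to 3′, from the hg38 reference genome, with AATAAA or ATTAAA in capitals where these DNA letters of the signal occurred.
VIM, chr10:17237566-17237595, plus strand: ctgcttcAATAAAtctttggaaaaactctt
GAPDH, chr12:6538344-6538373, plus strand: catcAATAAAgtaccctgtgctcaaccagt
HMGA1, chr6:34246204-34246233, plus strand: ttgAATAAAaaaaatatccttttctggact
S100A6, chr1:153534593-153534622, minus strand: ataaattttttttggtcaaatttacccttg
ACTN4, chr19:38730165-38730194, plus strand: taaaaaagaaagaATTAAAaactttcagag
HSP90AA1, chr14:102084860-102084889, minus strand: ttgaagatgttggttctgatgaggaagaag
TMSB10, chr2:84906646-84906675, plus strand: atgaaAATAAAacacacctcgtggcatggc
TUBA1B, chr12:49127781-49127810, minus strand: atctcaaagtaaagtcattaacatcaaaag
MALAT1, chr11:65499960-65499989, plus strand: ccaaaaattggataaaatagcactgaaaaa
RPS21, chr20:62388492-62388521, plus strand: atttgtcataAATAAAtaatgaaaacctac

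The signal began 17 to 27 bases before the end of the peak in the 6 sequences that held it. Over the tallest peaks of all 12947 genes, the last 30 bases held AATAAA in 27.4% and ATTAAA in 7.60%, searched on the strand of the peak. With the window widened to 40 bases either form was present at 36.9% of them, and S100A6 then counted among these.

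The tallest peak of a gene had a median height of 76 tags (95% interval 75 to 78, n = 12947 genes). The middle 50% of genes lay between 39 and 133 tags, and the whole range ran from 3 to 24717. The median gene held 3 peaks (quartiles 1 and 6) and a summed height of 151 tags (quartiles 53 and 364). A single peak was all that was listed for 3668 genes, or 28.3%, while 12.8% held at least 10 peaks and 0.263% at least 50.

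Height was concentrated in few genes. The 1504 genes with the largest sums, 11.6% of all, together held 50% of the summed height. The top 10% of genes held 46.5% and the top 1%, 130 genes, held 13.1%, while the lower 50% of genes held 9.79%. No single gene dominated, since the 20 genes with the tallest peaks accounted for 4.12% of the sum. Within genes the tallest peaks alone held 45.2% of all summed height, and in 60.3% of genes the tallest peak held at least 50% of that gene's own sum.

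**Figure D1:**
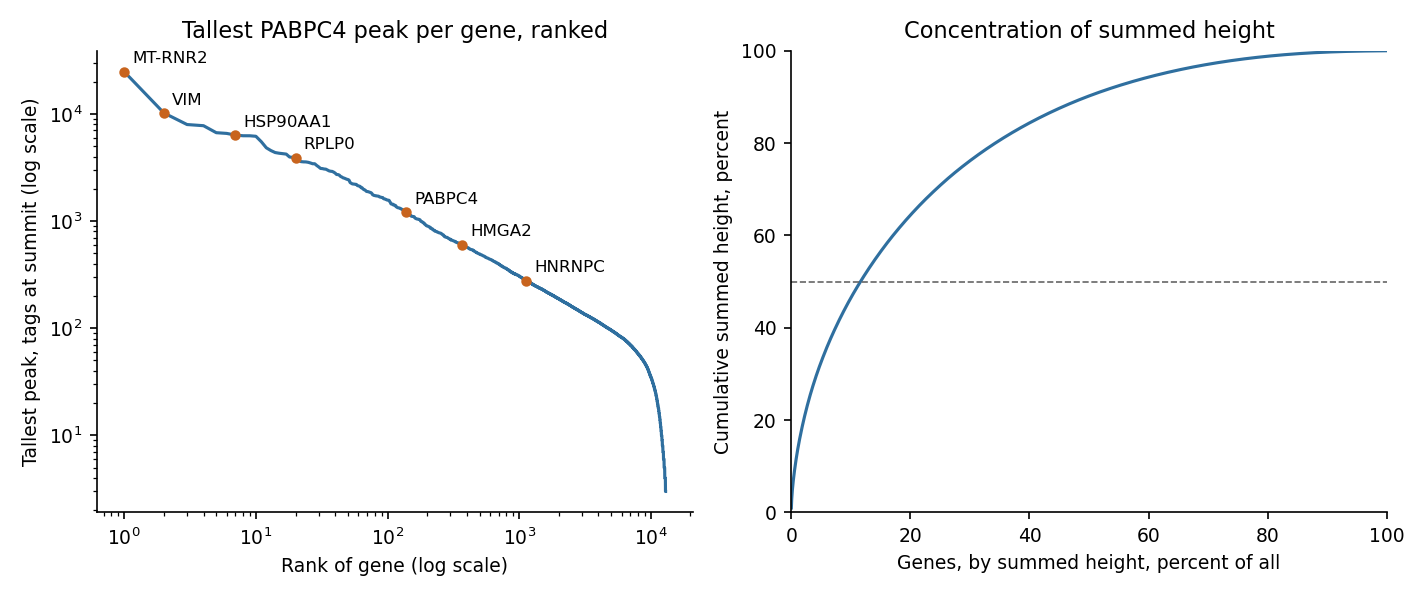
The left panel plots the tallest PABPC4 peak of each of 12947 genes (tags at the summit, log scale) against the rank of the gene (log scale), with 7 genes marked. The right panel plots the cumulative share of summed height against the share of genes, and the dashed line at 50% is crossed at 11.6% of genes.

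The list was led by an RNA of the mitochondrion and by mRNAs of the cytoskeleton, glycolysis, chromatin and the ribosome. MT-RNR2, the large ribosomal RNA of the mitochondrion, had the tallest peak, at 24717 tags. VIM, the intermediate filament vimentin, followed with 10197. GAPDH, a glycolytic enzyme, reached 7950, and HMGA1, a chromatin protein that bends DNA, reached 7753. S100A6, a calcium-binding protein, reached 6673 and ACTN4, which cross-links actin filaments, 6570.

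HSP90AA1, an inducible cytosolic chaperone, came next with 6335 tags. TMSB10, which binds actin monomers, had 6248, and TUBA1B, an α-tubulin, 6245. MALAT1, a nuclear long non-coding RNA, was the only long non-coding RNA among the 20, with 6176. RPS21, RPS29, RPLP1 and RPLP0, 4 ribosomal protein genes, had 5493, 4546, 4293 and 3900 tags. MYL6, a myosin light chain, had 4824 and FTL, the light chain of the iron store ferritin, 4357.

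The remaining 4 of the 20 were ARHGDIA, which holds small GTPases in their inactive form, with 4251 tags, CFL1, which severs actin filaments, with 4213, PFN1, which binds actin monomers, with 3961, and MT-RNR1, the small mitochondrial ribosomal RNA, with 3924. Most of the 20 tallest peaks stopped near the end of an annotated transcript. In 18 of the 20 genes the tallest peak stopped within 50 nucleotides (nt) of the end of an annotated transcript of the gene, and 15 had a poly(A) signal in the last 40 nt. The exceptions were MT-RNR2, whose peak stopped at -628 nt from the annotated end (negative values lie upstream of it), and HSP90AA1, whose peak lay in the coding sequence and stopped 73 nt past the nearest annotated end. Ends of all annotated transcripts were counted, also of those that stop inside the gene, so such a peak need not mark the gene's 3′ end. MALAT1, counted among the 18, had further peaks downstream of its tallest. An A-rich stretch (6 A in a row, or 7 A in 10 bases, within 50 nt downstream in the genome) followed 1 of the 20, HSP90AA1.

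HSP90AA1 spread its tags over 9 peaks. The 2 tallest, of 6335 and 2884 tags, lay in the coding sequence, the peak in the last 3′ UTR segment reached 1800, and a further coding peak 1571, of a summed height of 13535. The 30 bases after its tallest peak are shown because they held 17 A and no poly(A) signal lay in the peak's last 40 nt, with capitals marking each run of 6 A and each window of 10 bases with at least 7 A.
HSP90AA1, chr14:102084830-102084859, minus strand: AAAAGAAGGAtggtgACAAGAAGAAGAAGA

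Ranked by summed height instead, 12 of these 20 genes stayed among the 20 highest. The 5 largest sums belonged to MT-RNR2 with 38619 tags, HSP90AA1 with 13535, VIM with 11239, HMGA2 with 10522 and MALAT1 with 10270. HMGA2, a chromatin protein of the same family as HMGA1, reached its sum in another way than its relative. HMGA1 had 1 peak of 7753 tags, all in its last 3′ UTR segment, whereas HMGA2 had 75 peaks, none above 602 tags, and 1.25% of its height in the segment. HMGA2 ranked 368 by tallest peak, and its 4 tallest peaks lay outside the annotated exons.

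Genes of the same function were then described together, from 22 lists. The top 10% of genes by tallest peak were the 1295 genes (10%) at or above 253 tags, which is 3.33 times the median gene, and a list is read against that share and against the median of 76 tags. Shared abundance of the mRNAs of a list was not measured here.

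Among the lists of nuclear genes the cytosolic ribosomal proteins had the highest median. Of 79 genes, 73 had a peak, 55 were in the top 10%, and the median tallest peak was 1567 tags. Ribosomal protein genes made up 37 of the 100 genes with the tallest peaks. Their spread was wide, since RPL3 had 7 tags and RPS27 22, and RPS9, RPS18, RPS26, RPL7 and RPL21 were among those with no peak. Ribosomal protein genes have many near-identical pseudogene copies. How tags that match several copies were handled is not given in the sources used here, so low values in this family are uncertain. Whether the copies lowered them was not tested. The same uncertainty holds for EEF1A1, a translation elongation factor, which had 1 peak of 17 tags. It also holds for ACTB, cytoplasmic β-actin, although its 975 tags placed it in the top 10%.

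Other abundant housekeeping machinery also stood above the median gene. All 51 nuclear-encoded subunits of the respiratory chain and ATP synthase had a peak and 39 were in the top 10%, with a median of 391 tags. They were led by ATP5F1E (2222 tags), ATP5F1A (1655) and the cytochrome oxidase subunit COX7C (1273). Of 31 proteasome subunits, 30 had a peak and 20 were in the top 10% (median 331.5), led by PSMB7 (1101), PSMA7 (926) and PSMB6 (829). Of 27 chaperones, 25 had a peak and 19 were in the top 10% (median 485), with HSP90AB1 (1930) and the small heat shock protein HSPB1 (1713) after HSP90AA1. Of 35 translation factors, 33 had a peak and 18 were in the top 10% (median 315). Their tallest were EEF2, which moves the ribosome along, with 1957 tags, EIF4G2 with 1659 and EEF1G with 1495.

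Metabolic and splicing genes gave similar values. Of 19 glycolysis enzymes 16 had a peak and 10 were in the top 10% (median 505), led by GAPDH, the enolase ENO1 (3480) and the pyruvate kinase PKM (1809). GPI, a further enzyme of the pathway, counted as having no peak, although a peak of 1261 tags inside it was listed under its neighbour PDCD2L. All 34 hnRNP and SR splicing proteins had a peak above the median gene and 23 were in the top 10% (median 312), led by HNRNPA2B1 (1745), PCBP2 (1604) and PCBP1 (846).

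The cytoskeleton formed the other tall group. All 39 actin cytoskeleton genes had a peak, and 28 were in the top 10%, with a median of 495 tags and with ACTN4, TMSB10 and MYL6 at the head. Of 21 tubulins and intermediate filaments, 19 had a peak and 11 were in the top 10% (median 471), headed by VIM, TUBA1B and LMNA, a nuclear lamin, at 1330. Of 23 integrins and adhesion receptors, 22 had a peak and 12 were in the top 10% (median 289). The tallest of these were the tetraspanins CD63 (2528) and CD9 (2045) and BSG, also called basigin (989). Of 32 matrix and secreted proteins, 31 had a peak and 16 were in the top 10% (median 255), with IGFBP4, which binds insulin-like growth factors, at 3530, CCN1 at 1108 and the thrombospondin THBS1 at 802.

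Genes that make transcription factors had lower medians than the lists above. Of 29 immediate-early and stress transcription factors, 24 had a peak and 6 were in the top 10%, with a median of 151 tags. That median still lay above the median gene. FOSL1, a partner in the AP-1 factor, had 1515, the hypoxia factor HIF1A 567 and ID1 525. The 477 ZNF zinc finger genes, mostly transcriptional repressors, lay below the median gene. A peak was listed for 352 of them, their median was 55 tags, and 3 were in the top 10%, namely ZNF395 (422), ZNF83 (361) and ZNF106 (315). An A-rich stretch followed the tallest peak of 177 of the 352, against 43.9% of all 12947 genes, and 1 of them stayed in the top 10% when peaks before such a stretch were left out.

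**Figure D2:**
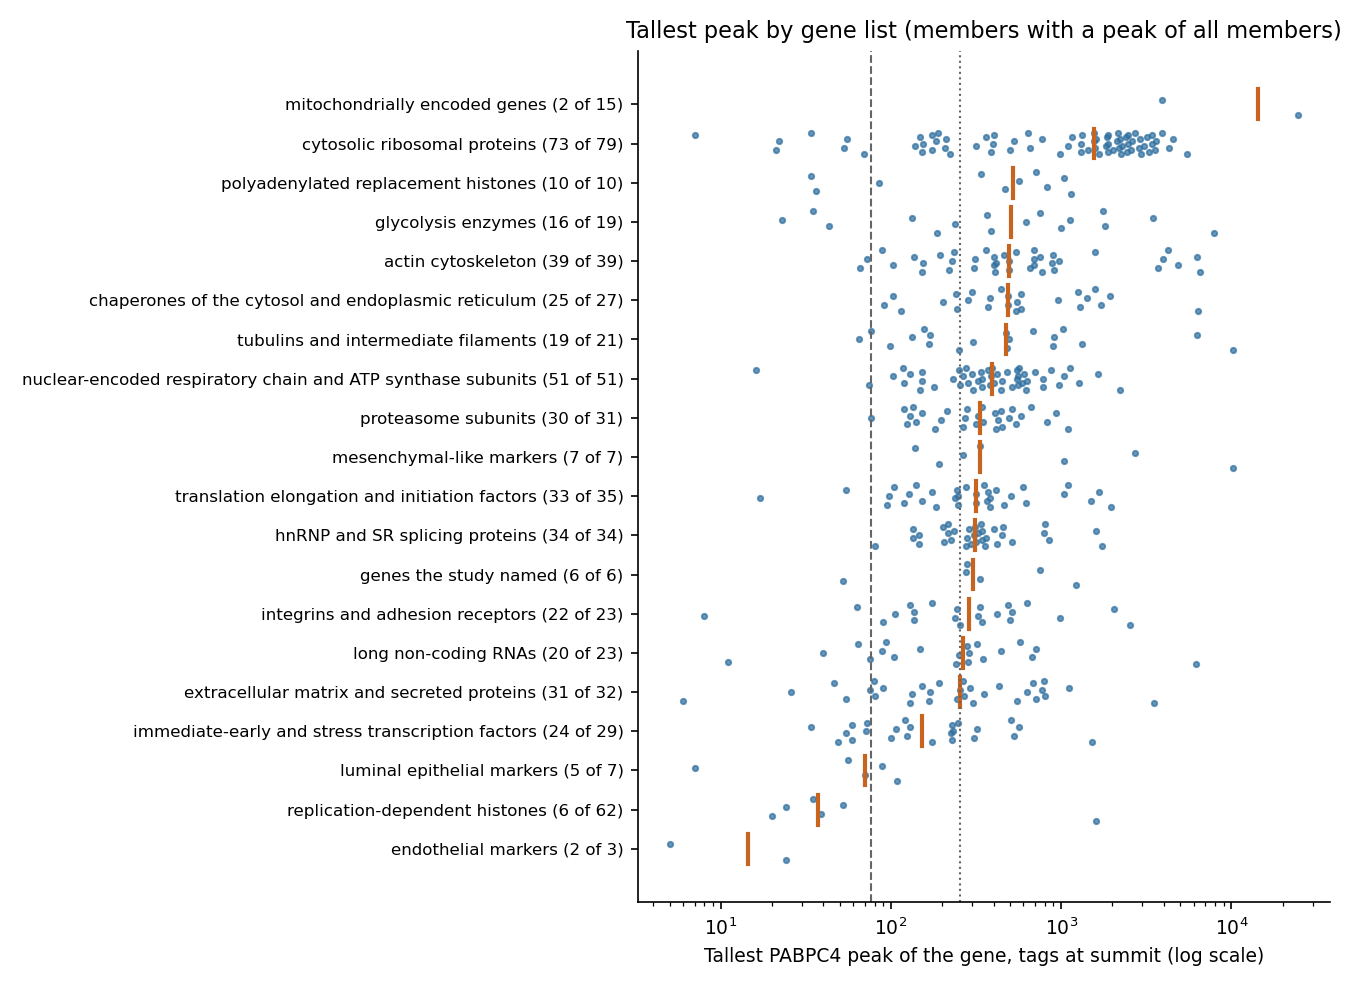
Each point is the tallest PABPC4 peak of 1 gene (tags at the summit, log scale) in 20 lists, with the number of members with a peak and the size of the list in brackets. Orange bars are list medians, the dashed line is the median of all genes (76 tags) and the dotted line is the entry to the top 10% (253 tags).

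Histone genes were listed by how their mRNA normally ends. Replication-dependent histone mRNAs normally end in a stem-loop and carry no poly(A) tail, while the replacement histones are polyadenylated like other mRNAs. Of 62 replication-dependent histone genes, 6 had a peak, with a median of 37 tags, whereas all 10 replacement histone genes had a peak, with a median of 519 tags. The abundance of these mRNAs was not measured, and the cause of the difference was not tested. H2AZ1 (1144) and H2AJ (1043), both replacement histones, had poly(A) signals in their tallest peaks, while MACROH2A2 and H3-3A, with 36 and 34 tags, lay below the median gene and had none. The replication-dependent genes with a peak other than H4C3 reached 52 tags at H2BC12, 39 at H2AC14, 35 at H4C8, 24 at H3C10 and 20 at H2BC5.

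H4C3, a replication-dependent H4 gene, was the exception with 1607 tags in 1 peak. That peak lay in the coding sequence, had no poly(A) signal and stopped at -38 nt from the annotated end. The 30 bases after it are shown because an A-rich stretch opened them, in capitals as above, and 0 of the 6 genes remained in the top 10% when peaks before such stretches were left out.
H4C3, chr6:26104300-26104329, plus strand: AAACAAAAAAACCCAAAggcccttttcagg

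Long non-coding RNAs were fewer and lower than mRNAs. Protein-coding genes made up 90.5% of the genes with a peak and 98.0% of the top 10%, and 58.4% of the 20056 protein-coding genes in the RefSeq table had a peak. The 960 long non-coding RNAs had a median tallest peak of 36 tags, against 81 for protein-coding genes. Of them 16, or 1.67%, were in the top 10%. Their tallest peaks had a poly(A) signal in 20% of cases and an A-rich stretch in 56.5%, against 38.8% and 42.7% for protein-coding genes.

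Among long non-coding RNAs chosen by name, 20 of 23 had a peak and 10 were in the top 10%, led by MALAT1, by NEAT1, which scaffolds nuclear paraspeckles, at 706, and by the snoRNA host SNHG6 at 677. Outside these chosen genes, SNHG29 (1401), SNHG25 (991), MIR100HG (797) and MANCR (787) were also taller than NEAT1. The tallest peak of NEAT1 had no poly(A) signal and preceded an A-rich stretch. The tallest peak of MALAT1 stopped 7 nt past the end of an annotated transcript, with peaks of 1485 and 469 tags farther downstream. This tallest peak neither held a poly(A) signal nor preceded an A-rich stretch. Of the 15 mitochondrially encoded genes listed, both ribosomal RNAs had peaks and no peak was listed for the 13 protein genes. Whether the authors' peak calling covered these 13 genes is not given in the sources used here. The peaks of MT-RNR2 held 24717, 11325 and 2577 tags, and nuclear copies of mitochondrial sequence exist, so that these tags are uncertain too.

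The cell line's markers were checked against its label. All 7 mesenchymal-like markers had a peak above the median gene. VIM had 10197 tags, the caveolar protein CAV1 2714, the receptor kinase AXL 1041, the hyaluronan receptor CD44 331, SPARC 264, fibronectin FN1 190 and the transcription factor ZEB1 139. Of 7 luminal epithelial markers, GATA3 had 108 tags and EPCAM 88, both also above the median gene. ERBB2 had 70, the cadherin CDH1 56 and the oestrogen receptor ESR1 7, while PGR and FOXA1 had no peak. The blood-cell markers PTPRC, CD3E, CD14 and HBB had no peak, and of the 3 endothelial markers PECAM1 had 24 tags, VWF had 5, both in introns, and CDH5 had none.

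The position of the tallest peak was then compared with the annotated 3′ UTR in 11679 coding genes that have one. The last segment is the 3′ UTR exon block that reaches farthest downstream over all coding transcripts of the gene. The centre of the tallest peak lay in it in 6143 genes, or 52.6% (95% interval 51.7 to 53.5). Introns held the tallest peak of 34.8% of genes, coding sequence 5.10%, other 3′ UTR segments 4.37%, other exons 2.26% and places outside the gene 0.882%.

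Tallest peaks in the last segment looked unlike the rest. A poly(A) signal was present in 62.9% of them and an A-rich stretch followed 25.3%, whereas of the 5536 tallest peaks elsewhere 12.1% held a signal and 61.9% preceded an A-rich stretch. Those in the segment stopped within 50 nt of an annotated transcript end in 73.0% of genes, at a median of -2 nt from it (quartiles -20.5 and 0), against 11.6% of those elsewhere. The genes differed too, with a median length of 22009 nt where the tallest peak lay in the segment and 65925 nt where it did not, and a median tallest peak of 99 against 69 tags.

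The share of a gene's summed height in the last segment was split between extremes. Its median was 41.7% (95% interval 40.1 to 43.6), but the quartiles were 2.53% and 96.3%. No height at all lay in the segment for 2842 genes (24.3%), and at least 90% lay there for 3155 genes (27.0%), of which 2883 had all of it there. Between 10% and 90% each step of 10 percentage points held between 502 and 855 genes. With peaks before A-rich stretches left out, the median share was 74.1%, and it was 74.6% when they were left out only where no poly(A) signal was present, so that the level of this share rests on how such peaks are counted. Whether tags at A-rich stretches came from priming inside transcripts was not tested.

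**Figure D3:**
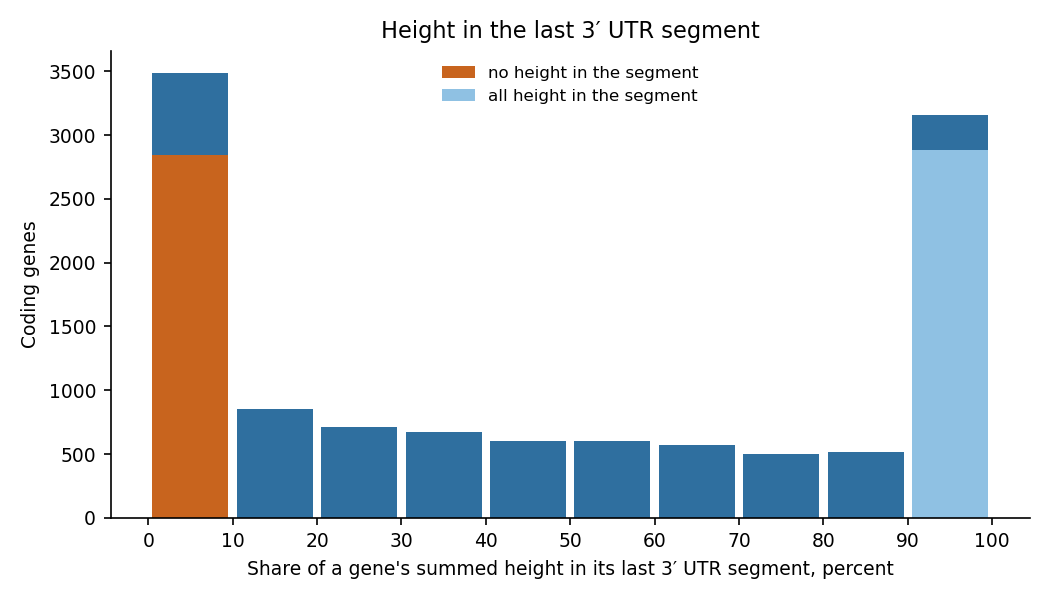
Bars count coding genes by the share of summed PABPC4 height in the last 3′ UTR segment, in steps of 10 percentage points. The end bars are the tallest, with 2842 genes without height there (orange) and 2883 genes with all height there (light blue).

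Among the tallest genes, more had the tallest peak in the last segment. Coding genes were ordered by tallest peak and cut into 10 groups of 1167 or 1168. The tallest peak lay in the last segment in 81.8% of the first group (95% interval 79.5 to 84.0), 73.3% of the second and 59.3% of the third. The share fell to 39.5% in the seventh group. It was 44.2%, 47.2% and 44.6% in the last 3 groups. Poly(A) signals followed the same course, from 70.5% to 25.2% in the seventh group, while A-rich stretches went the other way, from 24.6% to 53.1%.

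**Figure D4:**
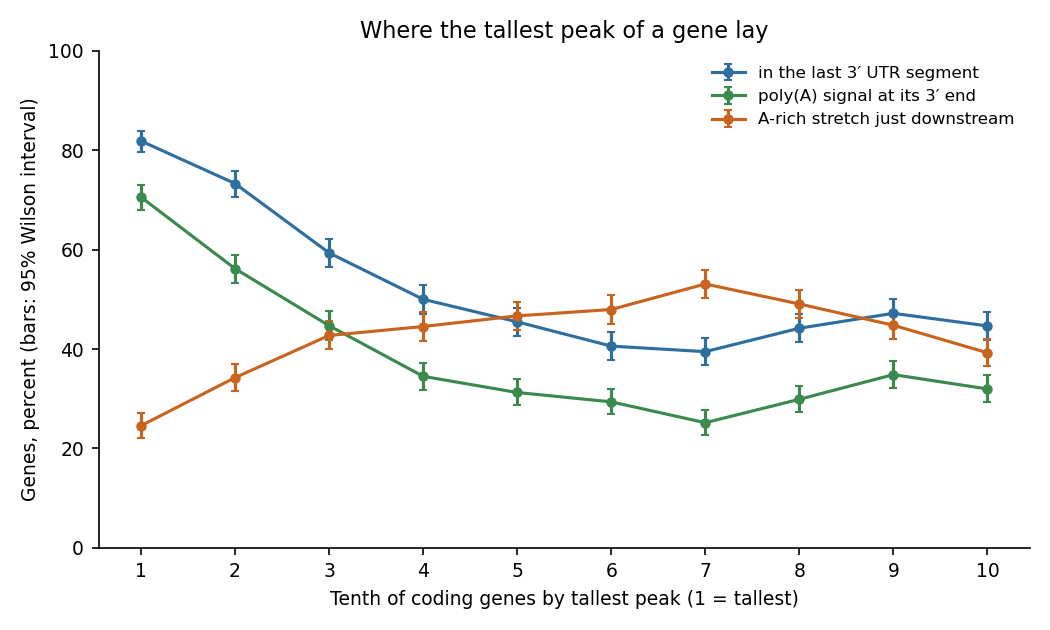
Coding genes are grouped by tallest PABPC4 peak into 10 groups from tallest (1) to lowest (10), with the percent of genes whose tallest peak lay in the last 3′ UTR segment, held a poly(A) signal or preceded an A-rich stretch. Bars are 95% Wilson intervals. The share in the segment was 81.8% in group 1 and 39.5% in group 7.

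Even so, some very tall peaks fell outside the last segment by this definition. Of the 1269 coding genes in the top 10%, 235 had their tallest peak elsewhere, 104 of these in coding sequence, 86 in another 3′ UTR segment and 28 in introns. Of the 235, 128 (54.5%) stopped within 50 nt of an annotated end, which is above the 11.6% of all genes with the tallest peak elsewhere. S100A6 is one of them. Its only peak was 235 nt wide and held its centre in the coding sequence, and it stopped 6 nt past the annotated end. MYL6 and RPL31 (3566 tags), both with a peak in another 3′ UTR segment, and RPLP1 and RPL8 (3584), with centres in coding sequence, were the other 4 tallest genes with no height in the last segment. Their peaks stopped within 2 nt of an annotated end and held a poly(A) signal. In 23 of the 28 genes with an intronic peak, an A-rich stretch followed it.

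The number of peaks in a gene went with its length, and their height did not. Across genes the rank correlation of peak number with gene length was 0.47 (Spearman, n = 12932 genes, which share both libraries and are not replicates), and that of tallest peak with length was -0.03, or 0.08 with the summed exon length in place of gene length. The share of height in the last segment fell with length, with a rank correlation of -0.53 over 11679 genes.

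The added peaks of long genes lay outside the last segment. Between the shortest 10% of coding genes (median 3.91 kb) and the longest 10% (median 326 kb), the mean number of peaks in the segment stayed between 1.11 and 1.66 in every group of 10%, while that of peaks elsewhere rose from 0.581 to 10.4 per gene. The share of all peaks that preceded an A-rich stretch rose with it in every step, from 30.2% to 70.0%, and the median share of height in the last segment went from 100% to 1.55%.

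Counted over positions, 43240 of the peaks in these genes lay outside the last segment, of which 68.8% preceded an A-rich stretch and 8.14% held a poly(A) signal. Of the 16899 inside it the shares were 31.1% and 49.2%, and the median heights were 37 and 46 tags. Genes with 1 peak had it in the last segment in 60.8% of cases, while in the 384 coding genes with 20 or more peaks the tallest lay there in 33.3%.

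**Figure D5:**
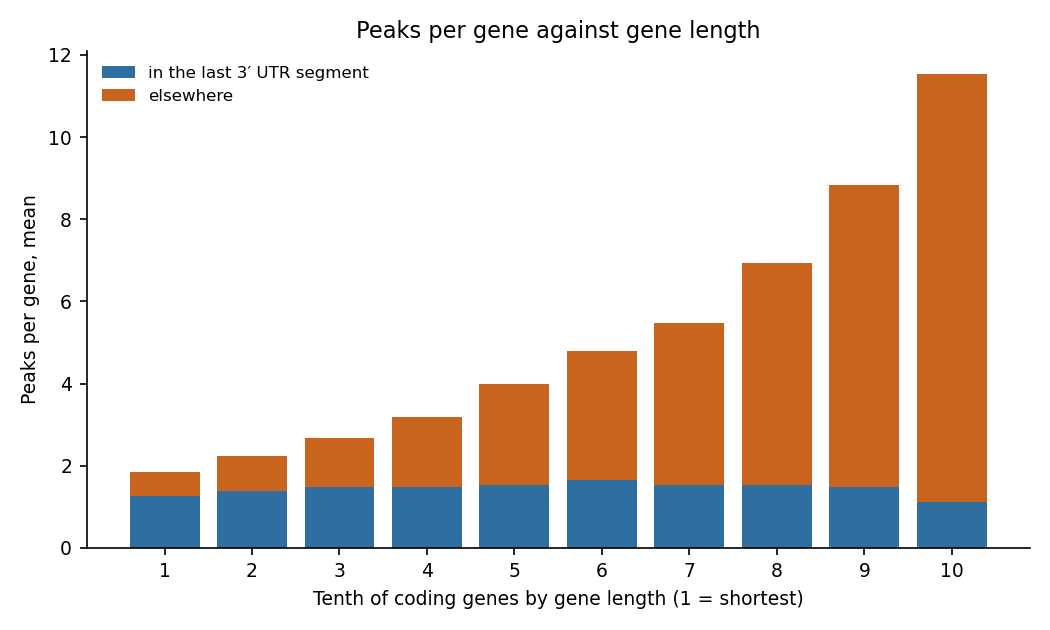
Mean number of PABPC4 peaks per coding gene in 10 groups of equal size from the shortest (1) to the longest (10) genes, inside the last 3′ UTR segment (blue) and elsewhere (orange). Blue stays between 1.11 and 1.66 peaks and orange rises from 0.581 to 10.4.

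The genes with the most peaks were either very long or listed far from their peaks. CRYAA, a lens crystallin, headed the count with 102 peaks and C21orf140 followed with 95, but all of these lay outside the genes, as described below. MAGI1, a scaffold of cell junctions, had 84 peaks, the transcription factor ZBTB20 82 and FHIT, a hydrolase at a fragile site, 80. Their tallest peaks were 610, 210 and 167 tags, and 12.2%, 30.9% and 1.22% of their height lay in the last segment.

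Some genes had more than 1 major peak in the last segment. A major peak was defined as one with at least 25% of the height in the segment. Of 8837 genes with height there, 6432 had 1 major peak and 2380 (26.9%) had 2 or more. That count was 3964 with a limit of 10%, 604 with a limit of 40%, 1567 with peaks at or above the median height and 1499 without peaks before A-rich stretches.

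In the 2257 genes with exactly 2 major peaks, the peak nearer the end of the gene (distal) was the taller in 1180 (52.3%, 95% interval 50.2 to 54.3) and the one nearer the stop codon (proximal) in 1039, with 38 ties. The ends of both peaks were a median of 457 nt apart (quartiles 112 and 1387), and the narrowest gap was 3 nt. Distances here and below run between the 3′ ends of the peaks, so the peaks themselves can nearly touch. The distal peak had a poly(A) signal in 65.0% of genes and the proximal one in 27.9%, while an A-rich stretch followed 28.6% and 41.3%. Both peaks held a signal and neither preceded an A-rich stretch in 246 genes, and there the distal peak was the taller in 109 (44.3%, interval 38.2 to 50.6), with a median gap of 678 nt.

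The 5 tallest genes with 2 or more major peaks showed both orders. TMBIM6, an inhibitor of cell death in the endoplasmic reticulum, had 3560 tags at the proximal and 2355 at the distal peak, 206 nt apart. Both held a poly(A) signal, and an A-rich stretch followed the proximal one. CAV1 had 2714 and 1793, 1543 nt apart, with a signal at the distal peak and none at the proximal one. In CCND1, cyclin D1 of the cell cycle, the distal peak was the taller, with 1730 against 1090 tags and 2967 nt between their ends. The distal peak held a signal, while the proximal one held none and preceded an A-rich stretch. NUCKS1, a nuclear DNA-binding protein, had 1045 and 619 tags 72 nt apart, both without a signal, and its tallest peak, of 1564 tags, lay in coding sequence. ANAPC7, a subunit of the anaphase-promoting complex, had 58 and 46 tags in the segment, with a signal at the distal peak alone, and its tallest entry is treated below. Of the 246 genes with a signal at both peaks and no A-rich stretch, the tallest was OAZ1, the antizyme that restrains polyamine synthesis, with 1105 proximal and 856 distal tags 153 nt apart, a gene named after its values were seen. Its proximal peak ended at position 2273336 of chromosome 19 and its distal peak began at 2273339.

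The mRNAs of PABPC1 and PABPC4 carried peaks in 5′ exons, an observation made after the values were seen. Of all positions in these coding genes, 285 in 240 genes lay in exons upstream of every annotated coding block, with a median height of 45 tags. The tallest was in PABPC1, the most abundant cytoplasmic poly(A)-binding protein, with 1477 tags, and the next in PABPC4, with 1216. RBMX, a splicing regulator, followed with 707. An A-rich stretch followed the peaks of PABPC1 and PABPC4 and 154 (54.0%) of all 285, and neither peak had a poly(A) signal.

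In PABPC4 this peak began 4 nt from the annotated gene start and was the tallest of the gene, just above the peak in its last 3′ UTR segment, of 1155 tags, which held a poly(A) signal. In PABPC1 the upstream peak held 27.8% of the sum, and the tallest peak, of 2204 tags, lay in a 3′ UTR segment other than the last, had no signal and preceded an A-rich stretch. The 5′ leader of PABPC1 is known to hold an A-rich element through which the protein limits its own translation. The 30 bases after the PABPC4 peak are shown because 23 of them are A, with capitals as above.
PABPC4, chr1:39576656-39576685, minus strand: GAAAAAAAAAAAGGAAAAGAAAAAACGAAT

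A further list held 6 of the genes that the study probed, PABPC4 among them, and it leaves out others. PGK1, a glycolytic enzyme, had 752 tags, PDLIM5, a cytoskeletal adaptor, 331, HNRNPC 278, the thioredoxin reductase TXNRD1 274 and the acetyltransferase subunit KAT14 52. All but KAT14 were in the top 10%, and with peaks under the median height left out, which raises the entry height, 3 of the 6 stayed there. PDLIM5 had 24 peaks, with the 4 tallest, of 331, 298, 224 and 187 tags, all in the last segment, which held 46.6% of its height. Of these 4, the peak of 187 tags alone held a poly(A) signal, and no A-rich stretch followed it. The peaks of 331 and 298 tags preceded A-rich stretches, and that of 224 tags had neither feature.

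Some gene IDs carried peaks far outside the gene. An ID was marked where its listed peaks spanned more than 2 times the annotated length of the gene. This held for 240 of 13155 IDs with a RefSeq span (1.82%), with 5420 entries, of which 531 (9.80%) had their centre inside the gene. Chromosome 21 held 16 of them, and all IDs together had 3870 entries on this chromosome for 781 positions. U2AF1, a splicing factor, CBS, an enzyme of cysteine synthesis, and CRYAA, each with a near-identical annotated copy elsewhere on chromosome 21, were listed with 333, 332 and 321 entries over 33949, 33728 and 33239 kb.

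After each position was given to 1 gene, 29 of the 240 IDs kept no position, U2AF1 kept 1 of 90 tags, and 122 IDs would be marked on what was kept. CRYAA still held 102 positions, none inside the gene, and its tallest peak, of 630 tags, lay 1561 kb away. The 5 marked IDs with the tallest peaks were RPL37A (2144 tags), ANAPC7 (1862), ACTB (975), CLDND1 (664) and TAF1D (658). The tallest peak lay inside the annotated gene in RPL37A, ACTB, CLDND1 and TAF1D, while that of ANAPC7 lay 24.9 kb outside it. Positions outside the RefSeq gene of their ID numbered 1755, 2.76% of all, and held 1.75% of the summed height, but 1034 of them lay inside the GENCODE gene matched to the same ID.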

How the data were processed

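Peaks came from 2 PABPC4 PAPERCLIP samples of MDA-MB-231 cells, pooled by the authors before peak calling. The deposited height of a peak is a signal value, the unique tags at its summit, and was not scaled to depth. The labels name UMI-tools, cutadapt, BWA 0.7.17 and hg38. The methods describe CTK with valley seeking and correction for multiple testing for the other protein, and the handling of the PABPC4 tags is not given in the sources used here. The highest p in the list was 0.05.

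A position listed under several gene IDs (3104 positions) was given to the ID whose RefSeq gene contained its centre on its strand, the shortest such gene first, then to the lowest p and then to the lowest ID. The order among several containing genes was chosen after the files were seen. Of 13189 listed IDs, 13155 matched RefSeq (GRCh38.p14), which gave symbols and spans, and 12934 matched GENCODE 44, which gave exons, 3′ UTR blocks of coding transcripts and transcript ends. Poly(A) signals were searched in the last 40 nt of a peak and A-rich stretches in the 50 nt downstream, on the strand of the peak, in the hg38 genome.

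With 1 pooled list no test between samples was possible. Shares have Wilson intervals and medians have binomial intervals, both at 95%. The calculations used Python 3.11.15, numpy 2.4.6, pandas 2.3.3, scipy 1.17.1, pysam 0.24.0 and matplotlib 3.10.9, and the gene table was tested on simulated peaks.

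The members and the gene lists were chosen with earlier results of these data known. Genes were named as the 20 tallest, the 5 with the most peaks, the 5 with the largest sums, the 5 tallest coding genes without height in the last segment, the 5 tallest with 2 or more major peaks, the 3 tallest of each list and all members of short lists and marker lists, and the 5 tallest marked IDs. Other genes, among them those given for low or absent values, were named after their values were seen.

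Alternatives changed the handling of positions under several IDs, the p and height limits, A-rich, mitochondrial and marked peaks, the definition of the segment, the major peak and the span limit, and gene against exon length. Some listed genes are not reported here.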

Additional observations from a re-analysis of the deposited data

How the results depend on the processing

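Of 152 alternative values of the main results, 115 stayed within the limits set for no change, 36 moved and 1 reversed. Of 166 for single lists, 161 did not move. A count was called unchanged up to a 1.5-fold difference and a rank correlation up to 0.05. A median or share had to stay inside its 95% interval. Without peaks before A-rich stretches, 10837 genes had a peak (12947 in the main setting). Single-peak genes then numbered 4740 (3668), and genes with at least 90% of height in the last segment 4357 (3155). Without peaks below the median height, 9793 genes had a peak. These counts were called unchanged. With peaks below the median height left out, the median tallest peak per gene was 98 tags, the top 10% of genes held 43.7% of the height, the tallest peak lay in the last segment in 54.5% of genes, the median share there was 47.3%, 1567 genes had 2 or more major peaks, 144 IDs were marked, and the rank correlation of tallest peak with length was -0.091. Without peaks before A-rich stretches these values were 65 tags, 47.8%, 61.4%, 74.1%, 1499 genes, 134 IDs and -0.107, and the rank correlation of peak number with length was 0.353. Left out only where no poly(A) signal was present, a choice made after seeing the data, they were 67 tags, 47.6%, 62.6%, 74.6%, 149 IDs, -0.101 and 0.376. Under both settings 0 replication-dependent histone genes and 1 ZNF gene stayed in the top 10%.

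The top 10% held 48.1% of the height with every listed ID counted, 46.6% with the ID of lowest p, 46.2% with a p of at most 0.001, 45.9% without mitochondrial peaks and 49.4% for tallest peaks in place of sums. With every listed ID counted the median share in the last segment was 39.9%. With the segment of the longest coding transcript it was 38.3%, and the tallest peak lay there in 50.9% of genes. Genes with 2 or more major peaks numbered 3964 with a limit of 10% and 604 with 40%. Marked IDs numbered 104 with a limit of 5 times the gene length and 122 with each position counted once, the latter added after seeing the data. Ranking by summed height kept 12 of the 20 tallest genes. With exon length, the rank correlation was 0.416 for peak number, and for the tallest peak it reversed to 0.079. The causes were not tested.

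No paired analysis was possible because the deposited list pools the samples, and for the same reason leaving out a replicate was not possible. The lowest tallest peak held 3 tags, and genes below the calling limit count here as having no peak.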
